A study of Mus musculus with 6 samples.

Results

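The genes described here are the ligands and receptors of the tumour necrosis factor (TNF) superfamily, the TRAF adaptor proteins that most of the receptors recruit, and the cellular inhibitor of apoptosis (cIAP) genes Birc2 and Birc3. They were chosen by symbol alone from the protein-coding genes of the deposited table (Tnf, every symbol that starts with Tnfsf or Tnfrsf and goes on with a number, Traf1 to Traf7, Birc2 and Birc3), which gave 41 of the 46452 genes listed. The 41 genes comprised 12 ligands, 20 receptors, 7 TRAF genes and 2 cIAP genes. Each was measured in whole hearts of mice aged 10 days by RNA sequencing, in 3 libraries from mice labelled Nat10 flox/flox, whose Nat10 alleles carry loxP sites, and 3 libraries from mice labelled Nat10-CKO, a conditional knockout of Nat10. NAT10 is an enzyme that acetylates cytidine in RNA, and the title of the study asks about its effects on heart development. The Cre driver, the deleted exons, the strain, the sex and whether the flox/flox mice carried any Cre are not given in the sources used here, and the labels call the 3 libraries of each group independent biological replicates.

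The level of the targeted gene was higher, not lower, in the libraries with the knockout label. Nat10 stood at 3.75, 4.18 and 4.71 FPKM (read fragments per kilobase of gene, scaled for depth) in the flox/flox libraries and at 8.28, 8.66 and 10.2 FPKM in those labelled Nat10-CKO. All 3 libraries labelled Nat10-CKO lay above all 3 flox/flox libraries, a rise of 0.94 ± 0.12 on the log2(FPKM + 1) scale (SE, limma adjusted p = 0.00175). These values count reads over the whole gene in whole hearts. They do not show whether the deleted exons, which are not given, were missing from those reads. The groups are therefore called by their labels throughout (the latter also CKO-labelled), and each direction below is that of the libraries labelled Nat10-CKO against the flox/flox libraries. The libraries held 31155521 to 38051266 reads in genes, and for a gene of 1 kb the step from 1 read to the next was 0.0246 to 0.0316 FPKM. Mitochondrially encoded genes took 16.6% to 18.3% of the reads in the flox/flox libraries and 7.56% to 9.26% in the others. Of 8 cardiomyocyte markers, 7 were at 0.5 FPKM or more, with a summed level of 10203 to 21777 FPKM per library, and markers of fibroblasts, endothelial cells and macrophages were also measured in every library. In such bulk tissue, fewer cells of a type and less RNA per cell cannot be told apart.

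TNF superfamily ligands are mostly made as membrane proteins that act as trimers, on the cell surface or after release by a protease. Their receptors either carry a death domain, which can engage caspases, or bind TRAF proteins directly, and TRAF and cIAP proteins pass the signal on by ubiquitination to the NF-kB, JNK and p38 pathways. In the heart, TNF and TWEAK (the product of Tnfsf12) and their receptors have been studied in inflammation, hypertrophy and loss of muscle cells.

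The bases upstream of 3 members are shown first, because Tnfrsf12a and Traf2 were the receptor and the TRAF gene with the largest rises and Traf3 was the called member with a match to an NF-kB motif. Each is the 250 bases that end just before a gene start of RefSeq (GRCm38.p6), and was found at a single place in GRCm39: chr17:23896424-23896673 on the minus strand for Tnfrsf12a, chr2:25436953-25437202 on the minus strand for Traf2 and chr12:111132554-111132803 on the plus strand for Traf3. The deposited table begins Traf3 further upstream, so the last 49 bases of that window lie inside the gene as listed there, while the other windows shown end where the listed gene begins. They read 5′ to 3′ along the gene, and the capitals mark the GC box (GGGCGG, either strand) and, in Traf3, the NF-kB motif that ends it.

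Tnfrsf12a: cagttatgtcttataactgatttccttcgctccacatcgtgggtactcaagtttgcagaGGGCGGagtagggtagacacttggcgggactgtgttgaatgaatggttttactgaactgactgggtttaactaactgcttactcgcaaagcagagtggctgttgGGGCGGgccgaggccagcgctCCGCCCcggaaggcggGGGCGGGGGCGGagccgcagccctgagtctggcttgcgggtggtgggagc

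Traf2: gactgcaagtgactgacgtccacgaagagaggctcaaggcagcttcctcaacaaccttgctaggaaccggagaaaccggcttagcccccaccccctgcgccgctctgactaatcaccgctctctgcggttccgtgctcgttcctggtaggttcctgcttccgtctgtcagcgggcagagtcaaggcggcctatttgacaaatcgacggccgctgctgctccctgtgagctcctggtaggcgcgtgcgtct

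Traf3: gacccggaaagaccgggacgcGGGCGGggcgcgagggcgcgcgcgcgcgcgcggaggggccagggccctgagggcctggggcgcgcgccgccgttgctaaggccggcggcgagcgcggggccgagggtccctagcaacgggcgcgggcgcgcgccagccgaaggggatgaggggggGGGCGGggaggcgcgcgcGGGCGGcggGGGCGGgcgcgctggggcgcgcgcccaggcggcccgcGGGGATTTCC

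A set of 6 motifs was searched on both strands, counting overlapping matches: AP-1 (TGANTCA), the cAMP response element (TGACGTCA), EGR (GCGTGGGCG), the GC box, the NF-kB motif and the CArG box. The GC box and the EGR motif can share bases. The Tnfrsf12a promoter held 5 GC boxes and no match to the other motifs. In the Traf3 promoter there were 4 GC boxes and 1 NF-kB match, which starts 10 bases before the RefSeq start and lies inside the gene as the deposited table lists it, and the Traf2 promoter held no match to any of them. Among 32851 promoters of the same length, 32.7% held a GC box, 7.25% the NF-kB motif, 6.75% AP-1, 1.55% the cAMP response element, 1.47% a CArG box and 0.536% EGR. A promoter was matched by gene identifier for 34 of the 41 members, and for 8 of the 9 members that passed the test below. Of those, Tnfrsf1a and Tnfsf10 held no match, Traf6 held 2 GC boxes and Tnfrsf21 held 1. Tnfrsf19 had 2 RefSeq starts, 1 with no match and 1, inside the gene as listed, with 3 GC boxes. These matches describe the letters of the window and say nothing of what binds there.

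Of the 41 members, 26 had a mean of at least 0.5 FPKM over the 6 libraries and were tested, and 15 were below it and are counted as low. At an adjusted p under 0.05, 5 of the 26 were higher in the libraries labelled Nat10-CKO (Tnfrsf12a, Tnfrsf1a, Traf2, Traf3 and Traf6), 4 were lower (Tnfsf10, Tnfsf12, Tnfrsf21 and Tnfrsf19) and 17 did not pass. Over all 13681 genes tested in the same limma fit, 37.6% passed, 21.8% higher and 15.8% lower, so 9 called of 26 is near the background of this comparison. The groups did not overlap for 13 of the 26 members, 8 higher and 5 lower, against 54.1% of all tested genes (29.0% higher and 25.1% lower). Tnfrsf19 reached the 0.5 FPKM threshold through the flox/flox libraries alone, where it was high. Its count among the 4 lower members and among those without overlap therefore carries no weight. The median log2 difference was 0.07 over the tested members and 0.00 over all tested genes. Without flox/flox replicate 3 only 3 members passed as higher, and over all genes 1336 instead of 2167 passed as lower (1305 without flox/flox replicate 2). With mitochondrially encoded genes removed and the rest rescaled, 3 members were called higher and 5 lower, the higher share of all calls went from 57.9% to 39.9%, and the median of all tested genes moved to -0.14. Below, this setting is named by the removal, but each library was also scaled to its remaining total in place of the deposited scaling. The threshold at 0.5 FPKM fell between Tnfrsf23, Traf1 and Tnfrsf19, with means of 0.534, 0.548 and 0.560 FPKM, and Tnfrsf22 and Tnfrsf4 just below, with means of 0.462 and 0.449 FPKM.

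**Figure D1:**
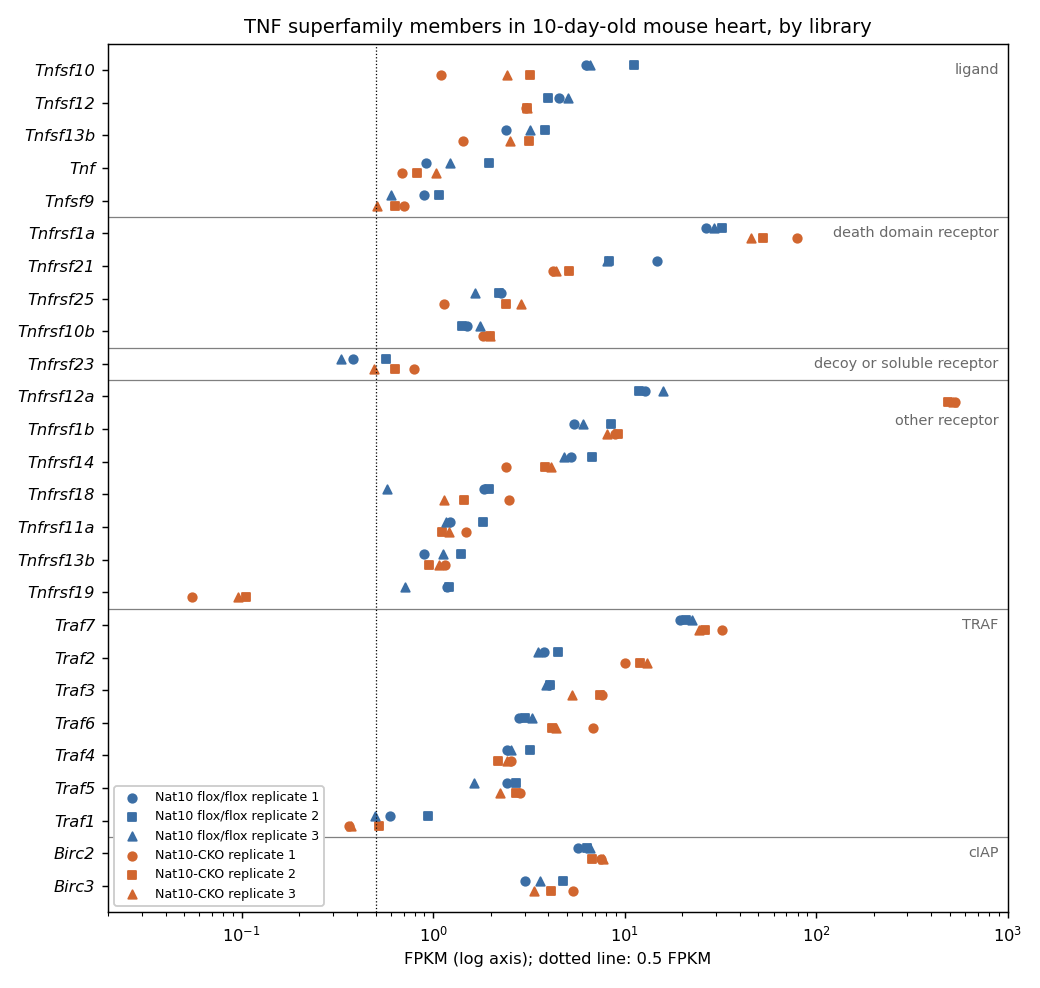
Level of each tested member in each library, in FPKM on a log axis, ordered by role, with flox/flox and Nat10-CKO libraries in different colours and 1 point per library. Tnfrsf12a stands apart, at 11.9 to 15.9 FPKM in the flox/flox libraries and 490 to 530 FPKM in those labelled Nat10-CKO.

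The ligands as a group were low. Of the 12, 7 had a mean under 0.5 FPKM, and the 5 that were tested all had log2 differences below 0, from -1.49 to -0.19 with a median of -0.34, and 2 of them passed as lower. Over all tested genes 37.6% passed, and 15.8% passed as lower. Tnfsf10 (chr3:27371226-27393814, plus strand), which encodes TRAIL, a ligand of death receptors, was the highest ligand in the flox/flox libraries, at 6.28, 11.2 and 6.61 FPKM, and stood at 1.10, 3.21 and 2.44 FPKM in the CKO-labelled libraries. Every library labelled Nat10-CKO lay below every flox/flox library, although flox/flox replicate 2 and Nat10-CKO replicate 1 stood away from the rest of their groups. The mean fell 3.57-fold, from 8.03 ± 2.75 to 2.25 ± 1.07 FPKM (SD, n = 3 each), a log2 difference of -1.49 ± 0.31 (SE, limma adjusted p = 0.0108). It passed under every alternative run.

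Tnfsf12, the gene of TWEAK (chr11:69577066-69586924, minus strand), was at 4.55, 3.97 and 5.08 FPKM in the flox/flox libraries and at 3.06, 3.09 and 3.09 FPKM in the others. The groups did not overlap, and the libraries labelled Nat10-CKO were nearly equal. The fall was 1.47-fold, a log2 difference of -0.43 ± 0.11 (SE, limma adjusted p = 0.0197). The call was lost when flox/flox replicate 1 (adjusted p = 0.0619), flox/flox replicate 3 (0.0727) or Nat10-CKO replicate 2 (0.0583) was left out. Tnfsf12 lies wholly inside Tnfsfm13, a readthrough gene on the same strand, which was listed at 0 in all 6 libraries, so how the counting divided their shared reads is uncertain.

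Tnf itself was barely above 1 FPKM. It stood at 0.921, 1.95 and 1.23 FPKM in the flox/flox libraries, from 62, 102 and 72 reads, and at 0.689, 0.819 and 1.03 FPKM in the CKO-labelled libraries, from 42, 47 and 58 reads. The groups overlapped, and the log2 difference of -0.34 ± 0.18 (SE, limma adjusted p = 0.190) had a 95% interval from -0.78 to 0.10. Tnf passed as lower with array weights (adjusted p = 0.0450), and under no other alternative run. Tnfsf13b, the gene of the B cell survival factor BAFF, was at 2.39, 3.86 and 3.22 FPKM against 1.43, 3.18 and 2.51 FPKM (log2 difference -0.32, limma adjusted p = 0.315). Tnfsf9, a costimulatory ligand of T cells, was at 0.899, 1.07 and 0.599 FPKM against 0.704, 0.633 and 0.509 FPKM (-0.19, limma adjusted p = 0.315). Both overlapped between the groups.

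The 7 low ligands were Tnfsf4, Tnfsf8, Tnfsf11, Tnfsf13, Tnfsf14, Tnfsf15 and Tnfsf18, with means from 0.00973 FPKM for Tnfsf15 to 0.349 FPKM for Tnfsf13. Among these, the groups did not overlap for Tnfsf18, the ligand of the costimulatory receptor encoded by Tnfrsf18, which had 8, 7 and 4 reads in the flox/flox libraries and 45, 37 and 24 reads in those labelled Nat10-CKO. Its mean was 0.0856 against 0.483 FPKM, and it passed as higher in the alternative with no filter on low values, in which it was tested. How often the groups did not overlap among all genes below the threshold was not counted. Tnfsf11, the gene of the osteoclast factor RANKL, had 6 reads in Nat10-CKO replicate 1 and Tnfsf4 had 4 reads in that library, and both were listed at 0 in the other 5. Summed over the 12 ligands, the level was 15.7, 23 and 17.6 FPKM in the flox/flox libraries against 8.56, 11.9 and 10.6 FPKM in the CKO-labelled ones, and Tnfsf10 made up 40.0%, 48.7% and 37.6% of it in the former and 12.8%, 27.0% and 23.1% in the latter.

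The receptors moved in both directions. Of the 20, 12 were tested and 8 were low, and of the 12, 2 passed as higher, 2 as lower and 8 did not pass. Over all tested genes 37.6% passed, 21.8% higher and 15.8% lower, so 4 called of 12 is near that background. The 2 lower receptors include Tnfrsf19, whose count carries no weight. Tnfrsf12a encodes Fn14, the small receptor of TWEAK, which has no death domain and is known as a gene induced by growth factors and tissue injury. It stood at 12.8, 11.9 and 15.9 FPKM in the flox/flox libraries (504, 365 and 546 reads) and at 530, 490 and 522 FPKM in the CKO-labelled libraries (18843, 16435 and 17110 reads). Within each group the 3 libraries lay close together, and the groups were far apart. The mean rose 37.9-fold, from 13.6 ± 2.09 to 514 ± 20.8 FPKM (SD, n = 3 each), a log2 difference of 5.15 ± 0.13 (SE, 95% interval 4.84 to 5.47, limma adjusted p = 3.0e-05).

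That rise ranked 7 among the log2 differences of the 13681 tested genes. By mean level, Tnfrsf12a lay above 75.1% of them in the flox/flox libraries and above 99.5% in the libraries labelled Nat10-CKO. It passed under every alternative run, with log2 differences from 4.97 to 5.27. Its gene (chr17:23894419-23896423, minus strand) overlaps the opposite-strand gene Hcfc1r1 by 80 bases, and the sources used here do not say whether reads were counted by strand. Hcfc1r1 was at 55.6, 54.5 and 49.6 FPKM in the flox/flox libraries and at 74.4, 73.5 and 74.3 FPKM in the others, a 1.39-fold rise (limma adjusted p = 0.0107), so its level in the libraries labelled Nat10-CKO was well below that of Tnfrsf12a.

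Because its ligand was among the members that fell, the pair was also set side by side. The FPKM of Tnfrsf12a was 2.82, 3.01 and 3.13 times that of Tnfsf12 in the flox/flox libraries and 173, 159 and 169 times in the libraries labelled Nat10-CKO. These ratios are of levels per gene length and are given without a test. Between the groups the receptor rose 37.9-fold and the ligand fell 1.47-fold.

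Tnfrsf1a, the death domain receptor of TNF that most cells carry (chr6:125326686-125339446, plus strand), was the highest receptor in the flox/flox libraries, at 26.7, 32.4 and 29.2 FPKM. It was at 79.6, 52.6 and 46.0 FPKM in the CKO-labelled ones. All 3 of these lay above the flox/flox libraries, with Nat10-CKO replicate 1 the highest. The mean rose 2.02-fold, from 29.4 ± 2.89 to 59.4 ± 17.8 FPKM (SD, n = 3 each), a log2 difference of 0.95 ± 0.21 (SE, limma adjusted p = 0.0139). The other TNF receptor, Tnfrsf1b, which has no death domain, was at 5.45, 8.49 and 6.09 FPKM against 8.96, 9.25 and 8.14 FPKM. Its groups overlapped, with a log2 difference of 0.37 ± 0.16 (SE, limma adjusted p = 0.113), and it passed without flox/flox replicate 2 (0.0308).

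Tnfrsf21, the gene of the death domain receptor DR6 (chr17:43327446-43400079, plus strand), fell. It stood at 14.7, 8.24 and 8.07 FPKM in the flox/flox libraries and at 4.23, 5.12 and 4.38 FPKM in the CKO-labelled libraries. The groups did not overlap, and flox/flox replicate 1 was the highest library. The log2 difference was -0.98 ± 0.23 (SE, limma adjusted p = 0.0160), a 2.26-fold fall of the mean. That library was also the one with nerve and glia markers (6 of 8 at 0.5 FPKM or more), whose summed level was 180 FPKM there, 3.80 and 4.20 FPKM in the other flox/flox libraries and 2.33 to 3.05 FPKM in the CKO-labelled libraries. Without flox/flox replicate 1 the call of Tnfrsf21 held, with a log2 difference of -0.72 (limma adjusted p = 0.0129).

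Tnfrsf19, the gene of the receptor TROY (chr14:61201283-61284304, minus strand), had 237, 188 and 124 reads in the flox/flox libraries and 10, 18 and 16 reads in the libraries labelled Nat10-CKO. These were 1.18, 1.21 and 0.710 FPKM against 0.0552, 0.105 and 0.0957 FPKM. No library of one group reached the other, and the mean fell 12.1-fold. Measured as log2(FPKM + 1), where the added 1 shrinks changes of low genes, the difference was -0.90 ± 0.15 (SE, limma adjusted p = 0.00439), while limma-voom on the recovered reads gave -3.57 (adjusted p = 0.00152). Its mean over the 6 libraries lay just above the 0.5 FPKM threshold, which it passed through the flox/flox libraries alone. Its count among the members that fell therefore carries no weight.

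The remaining death domain receptors did not pass. Tnfrsf10b, the receptor of TRAIL, was at 1.507, 1.421 and 1.752 FPKM in the flox/flox libraries and at 1.83, 1.99 and 1.99 FPKM in the others. Those groups did not overlap, and the log2 difference was 0.20 ± 0.10 (SE, limma adjusted p = 0.175). Tnfrsf25, whose ligand is Tnfsf15, was at 2.25, 2.21 and 1.65 FPKM against 1.14, 2.41 and 2.88 FPKM (0.01, limma adjusted p = 0.973). The libraries labelled Nat10-CKO were spread on both sides of the flox/flox libraries.

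Tnfrsf14, the gene of the lymphocyte and epithelial receptor HVEM, came closest to the threshold. It was at 5.23, 6.78 and 4.82 FPKM in the flox/flox libraries and at 2.41, 3.82 and 4.10 FPKM in the CKO-labelled libraries, with no overlap between the groups. The log2 difference was -0.58 ± 0.19 (SE, limma adjusted p = 0.0521), and it passed as lower under 7 of the 20 alternatives in which it was tested. Tnfrsf11a, Tnfrsf13b, Tnfrsf18 and Tnfrsf23 overlapped between the groups, with log2 differences from -0.07 to 0.20 and adjusted p values from 0.286 to 0.798. Tnfrsf11a is the receptor of RANKL, Tnfrsf13b a receptor of BAFF, Tnfrsf18 a costimulatory receptor of T cells, and Tnfrsf23 a decoy receptor of TRAIL. Tnfrsf18 lies within the opposite-strand long non-coding RNA gene Gm16008, which was at 1.38 to 2.73 FPKM, so the reads of the pair cannot be told apart if the strand was not used.

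The 8 low receptors were Tnfrsf4, Tnfrsf8, Tnfrsf9, Tnfrsf11b, Tnfrsf13c, Tnfrsf17, Tnfrsf22 and Tnfrsf26. They comprise costimulatory receptors of T cells, receptors on B cells and plasma cells, the soluble decoy osteoprotegerin (Tnfrsf11b) and members of the decoy cluster. Tnfrsf22, Tnfrsf23 and Tnfrsf26 are near copies beside each other on chromosome 7, and reads may have been split among them. Tnfrsf11b had 11, 2 and 4 reads in the flox/flox libraries and 11, 61 and 11 reads in the libraries labelled Nat10-CKO. The 61 reads came from Nat10-CKO replicate 2 alone.

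**Figure D2:**
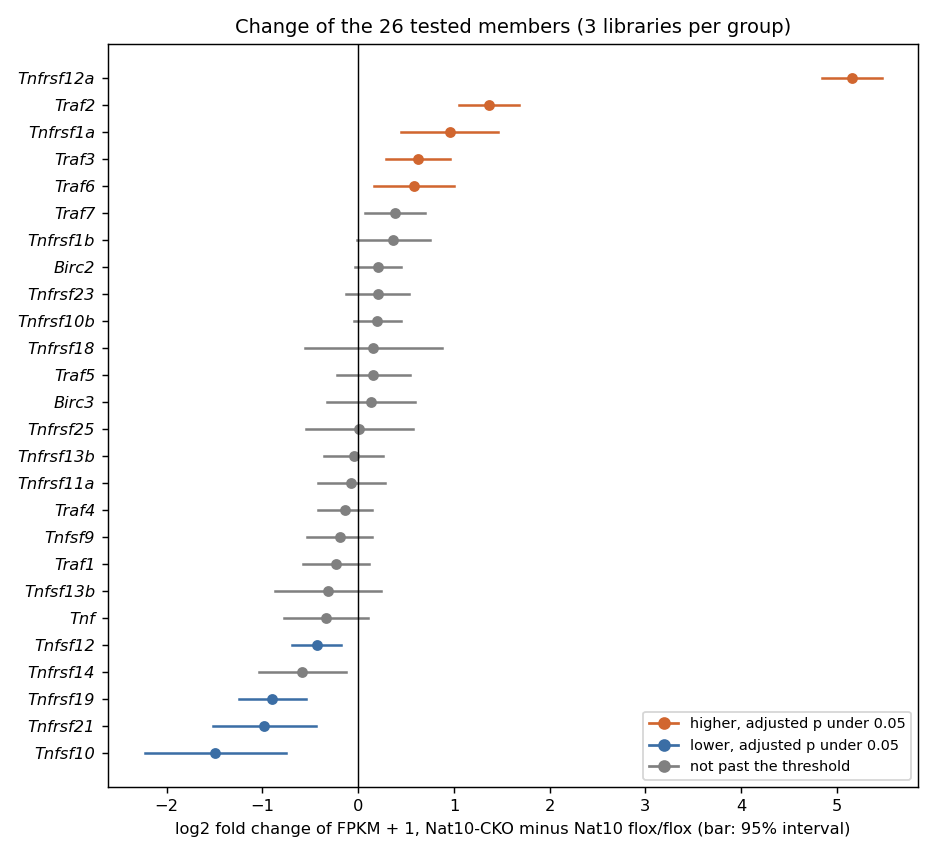
Log2 difference, libraries labelled Nat10-CKO minus flox/flox, on the log2(FPKM + 1) scale for the 26 tested members ordered by size, with 95% intervals from limma (n = 3 per group) and colours for genes that passed at an adjusted p under 0.05. Tnfrsf12a lies at 5.15, Traf2 at 1.36 and Tnfsf10 at -1.49, and the grey points are the 17 members that did not pass.

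Across the receptors, the makeup of the summed level changed with 1 gene. Tnfrsf12a made up 17.0%, 14.8% and 21.8% of the receptor FPKM in the flox/flox libraries and 83.4%, 85.8% and 87.8% in the libraries labelled Nat10-CKO. Over the same libraries Tnfrsf1a went from 35.4%, 40.3% and 40.0% to 12.5%, 9.202% and 7.74%, although its own level rose. Without Tnfrsf12a, the 19 other receptors summed to 62.6, 68.6 and 57.2 FPKM in the flox/flox libraries and to 106, 81.3 and 72.6 FPKM in the CKO-labelled libraries. The groups did not overlap in these sums, which follow Tnfrsf1a, and no test was made on them.

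**Figure D3:**
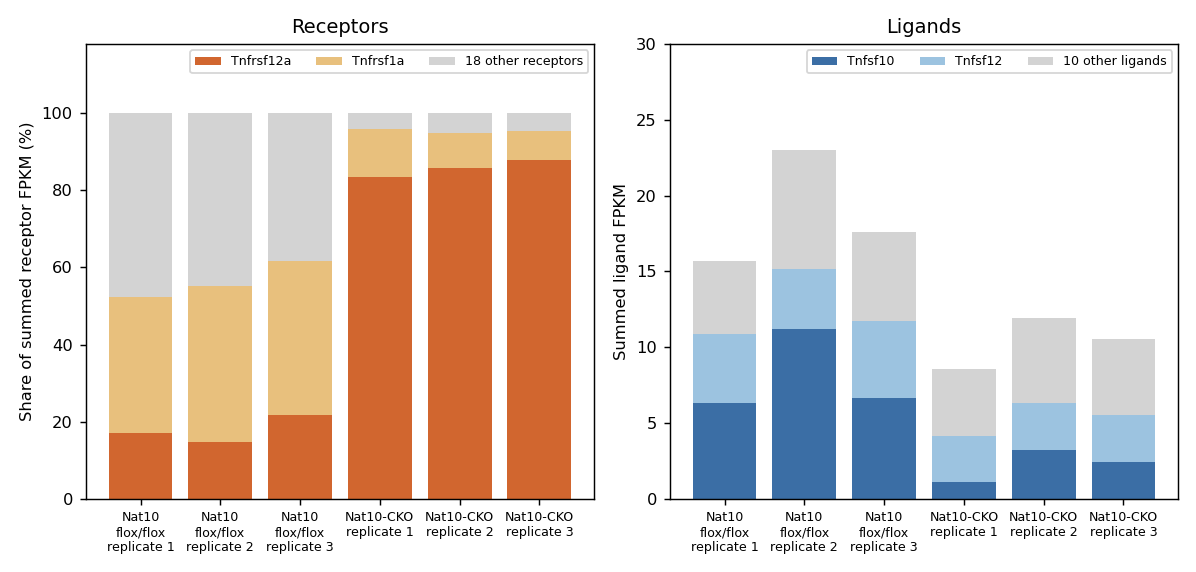
Makeup of the receptors in each library as percent of their summed FPKM (left), and summed FPKM of the ligands (right), with the leading genes coloured and the others in grey. Tnfrsf12a makes up 83.4% to 87.8% of the receptor sum in the libraries labelled Nat10-CKO and 14.8% to 21.8% in the flox/flox libraries, and the ligand sum is 15.7 to 23 FPKM in the flox/flox libraries and 8.56 to 11.9 FPKM in the others.

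All 7 TRAF genes were above the 0.5 FPKM threshold, and 3 passed, all as higher, while 4 did not pass. Over all tested genes 37.6% passed, and 21.8% passed as higher. With mitochondrially encoded genes removed, Traf2 was the only TRAF gene that passed. Traf2 encodes the adaptor and ubiquitin ligase partner that brings cIAP proteins to TNF receptors (chr2:25407994-25436952, minus strand). It was at 3.77, 4.51 and 3.53 FPKM in the flox/flox libraries and at 10.1, 12.1 and 13.0 FPKM in the CKO-labelled libraries. The groups were well apart. The mean rose 2.98-fold, from 3.94 ± 0.510 to 11.7 ± 1.5 FPKM (SD, n = 3 each), a log2 difference of 1.36 ± 0.13 (SE, limma adjusted p = 0.000754), and it passed under every alternative run.

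Traf3 encodes the adaptor that keeps the kinase NIK low in resting cells (chr12:111132755-111233589, plus strand). It was at 4.003, 4.089 and 3.905 FPKM in the flox/flox libraries and at 7.63, 7.40 and 5.32 FPKM in the others, with no overlap. Nat10-CKO replicate 3 was the lowest of its group. The rise was 1.70-fold, with a log2 difference of 0.63 ± 0.14 (SE, limma adjusted p = 0.0141). The call was lost without flox/flox replicate 3 (0.0516), without Nat10-CKO replicate 2 (0.0511) and with mitochondrially encoded genes removed (0.0537).

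Traf6, the TRAF gene that also serves Toll-like and interleukin-1 receptors (chr2:101508765-101532013, plus strand), was at 2.81, 3.03 and 3.28 FPKM against 6.87, 4.17 and 4.403 FPKM. The groups did not overlap, and Nat10-CKO replicate 1 was well above the other libraries. The rise was 1.69-fold, with a log2 difference of 0.58 ± 0.18 (SE, limma adjusted p = 0.0405). This call was lost under 11 of the 20 alternatives that tested it, the most for any member that passed. Among these were the fits without flox/flox replicate 1 (0.114), 2 (0.105) or 3 (0.0836), without Nat10-CKO replicate 3 (0.0531), with no filter on low values (0.0947), on total reads (0.0661), on protein-coding reads (0.0675) and with mitochondrially encoded genes removed (0.118).

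Of the other TRAF genes, Traf7, the highest and the most divergent in structure, was at 19.4, 20.9 and 22.4 FPKM in the flox/flox libraries and at 32.4, 26.4 and 24.3 FPKM in the CKO-labelled libraries. Its groups did not overlap, and its log2 difference was 0.38 ± 0.13 (SE, limma adjusted p = 0.0612). It passed as higher without Nat10-CKO replicate 3 (0.0485), with a mean of at least 5 FPKM required (0.0490) and with array weights (0.0171). Traf1, Traf4 and Traf5 overlapped between the groups, with log2 differences of -0.23, -0.13 and 0.16 and adjusted p values of 0.251, 0.404 and 0.460. Traf5 shares 4426 bases with Gstp-ps on the same strand, and its level is uncertain to that extent. Summed over Traf1 to Traf6, the level was 16.0, 18.5 and 15.4 FPKM in the flox/flox libraries against 30.3, 29.0 and 27.8 FPKM in the others, and Traf2 went from 22.9% to 24.4% of it to 33.2% to 46.9%.

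The cIAP genes Birc2 and Birc3, whose products are ubiquitin ligases that bind Traf2, did not pass. Birc2 was at 5.70, 6.34 and 6.59 FPKM in the flox/flox libraries and at 7.54, 6.75 and 7.67 FPKM in the others, with no overlap. Its log2 difference was 0.21 ± 0.10 (SE, 95% interval -0.03 to 0.45, limma adjusted p = 0.149). Birc3 was at 3.02, 4.79 and 3.63 FPKM against 5.37, 4.12 and 3.34 FPKM, with overlap and a log2 difference of 0.13 ± 0.19 (SE, limma adjusted p = 0.615).

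Members of the superfamily whose symbols the rule does not cover were read in the same fit. Of 14 such genes (Lta, Ltb, Fasl, Cd40lg, Cd70, Eda, Fas, Cd40, Ltbr, Cd27, Ngfr, Edar, Eda2r and Relt), 8 were tested, 3 passed as higher and 1 as lower. The 4 called genes were 50.0% of those tested, against 37.6% of all tested genes. Ltbr, the lymphotoxin beta receptor, was at 15.5, 17.0 and 17.2 FPKM in the flox/flox libraries and at 55.5, 40.2 and 44.7 FPKM in the CKO-labelled libraries, a 2.83-fold rise (limma adjusted p = 0.000769). Eda2r, a receptor of ectodysplasin, went from 1.10 ± 0.283 to 5.43 ± 0.361 FPKM (SD, n = 3 each, 4.94-fold, limma adjusted p = 0.000473). All libraries labelled Nat10-CKO lay above the flox/flox libraries for both genes.

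Relt, an orphan receptor, rose from 0.527 ± 0.0359 to 1.83 ± 0.499 FPKM (SD, n = 3 each, 3.48-fold, limma adjusted p = 0.00517). Eda, the gene of ectodysplasin, was at 0.918, 0.958 and 1.17 FPKM against 0.494, 0.485 and 0.645 FPKM (limma adjusted p = 0.0425). That call was lost under 10 of the 19 alternatives that tested it. These included leaving out flox/flox replicate 2 (0.0888) or 3 (0.123), or Nat10-CKO replicate 1 (0.0788), 2 (0.117) or 3 (0.0590). Quantile normalization (0.210), no filter on low values (0.0683) and a replicate block (0.0812) also lost it. Fas, the death receptor, was at 4.63 ± 0.664 against 5.51 ± 0.946 FPKM (SD, n = 3 each, limma adjusted p = 0.315) and did not pass. Ngfr, a receptor of nerve growth factor, was at 18.03 FPKM in flox/flox replicate 1, the library with the nerve markers, and at 0.0825 to 0.541 FPKM in the other 5.

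Among 18 genes of the death and survival machinery that acts at these receptors, 17 were tested, 4 passed as higher and 5 as lower (3 and 7 with mitochondrially encoded genes removed), 52.9% of those tested against the 37.6% of all tested genes. Otulin, a deubiquitinase that removes linear ubiquitin chains, rose 4.48-fold, from 10.9 ± 1.75 to 48.9 ± 11.5 FPKM (SD, n = 3 each, limma adjusted p = 0.000762), and Bid, the caspase substrate that links death receptors to mitochondria, rose from 1.21 ± 0.536 to 4.07 ± 0.948 FPKM (limma adjusted p = 0.00760). Fadd and Cyld were the other genes that rose. Tnfaip8 fell from 19.1 ± 1.71 to 7.19 ± 1.53 FPKM (SD, n = 3 each, limma adjusted p = 0.00136). Cflar and Xiap, whose products restrain cell death, were also among the genes that fell. Without flox/flox replicate 1, flox/flox replicate 2 or Nat10-CKO replicate 2, 5 genes of the list passed in place of 9.

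Of 20 kinases and their partners between TRAF proteins and NF-kB, JNK or p38, 19 were tested. Of these, 9 passed as higher and 1 as lower. With mitochondrially encoded genes removed and the rest rescaled, the direction turned, to 2 higher and 5 lower. After quantile normalization the counts were 4 and 4. The 10 called genes were 52.6% of those tested, beside 37.6% of all tested genes. Tab1, a partner of the kinase TAK1, went from 9.57 ± 0.853 to 23.7 ± 3.53 FPKM (SD, n = 3 each, limma adjusted p = 0.00110), and Map3k14, the gene of NIK, from 2.03 ± 0.224 to 5.86 ± 1.02 FPKM (limma adjusted p = 0.00139). Both were higher under every alternative in which they were tested. Map3k7, the gene of TAK1 itself, went from 11.7 ± 0.892 to 16.2 ± 0.947 FPKM (limma adjusted p = 0.0159), a call lost with mitochondrially encoded genes removed (0.089) and after quantile normalization (0.116). Mapk9, a JNK gene, fell from 11.4 ± 0.412 to 7.79 ± 0.399 FPKM (limma adjusted p = 0.00628). Leaving out 1 library lowered the number of genes that passed from 10 to 4 without flox/flox replicate 1 and to 5 without flox/flox replicate 2 or without Nat10-CKO replicate 2.

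Among 15 genes of NF-kB subunits and their inhibitors, 14 were tested and 5 passed, all as higher (4 higher and 1 lower with mitochondrially encoded genes removed). These 5 were 35.7% of those tested, near the 37.6% of all tested genes that passed in either direction, and 21.8% of all tested genes passed as higher. Tnip1, whose product restrains NF-kB together with A20, rose 5.52-fold, from 14.7 ± 1.57 to 81.1 ± 7.005 FPKM (SD, n = 3 each, limma adjusted p = 0.000178), and the libraries within each group lay close together. Nfkbib, an inhibitor that holds NF-kB in the cytoplasm, rose from 10.2 ± 0.387 to 22.4 ± 1.43 FPKM (limma adjusted p = 0.000607). Tnip2 rose from 6.80 ± 0.453 to 11.6 ± 1.33 FPKM (limma adjusted p = 0.00458) and Nfkb2, a subunit of the branch that NIK controls, from 3.42 ± 0.467 to 5.33 ± 0.206 FPKM (limma adjusted p = 0.0116). Rela was the fifth. Of the 5 genes that rose, 3 encode inhibitors of NF-kB and 2 encode subunits, and the same number passed in this direction when any 1 library was left out.

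The textbook targets of NF-kB did not move one way. Of 25, 20 were tested, 4 passed as higher and 3 as lower (3 and 4 with mitochondrially encoded genes removed), and the median log2 difference was -0.11. The called share of 35.0% was near the 37.6% of all tested genes. Bcl2l1, an inhibitor of apoptosis at mitochondria, rose from 7.18 ± 1.51 to 21.3 ± 2.55 FPKM (SD, n = 3 each, limma adjusted p = 0.00114), and Ier3, an early response gene, from 24.0 ± 0.664 to 54.4 ± 16.1 FPKM (limma adjusted p = 0.00637). Ptgs2, the gene of cyclooxygenase-2, was at 0.113 ± 0.0365 FPKM in the flox/flox libraries and 1.04 ± 0.209 FPKM in the others (limma adjusted p = 0.00334). It reached the 0.5 FPKM threshold through the libraries labelled Nat10-CKO alone, so its count among the 4 carries no weight. Ccl2 was the other gene that rose. Nos2, the gene of inducible nitric oxide synthase, fell from 4.37 ± 0.759 to 1.04 ± 0.0961 FPKM (limma adjusted p = 0.000707), and Sod2 and Csf1 also fell. The genes of these 4 lists that are named here without values, Fadd, Cyld, Cflar, Xiap, Rela, Ccl2, Sod2 and Csf1, were named after their values were seen.

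**Figure D4:**
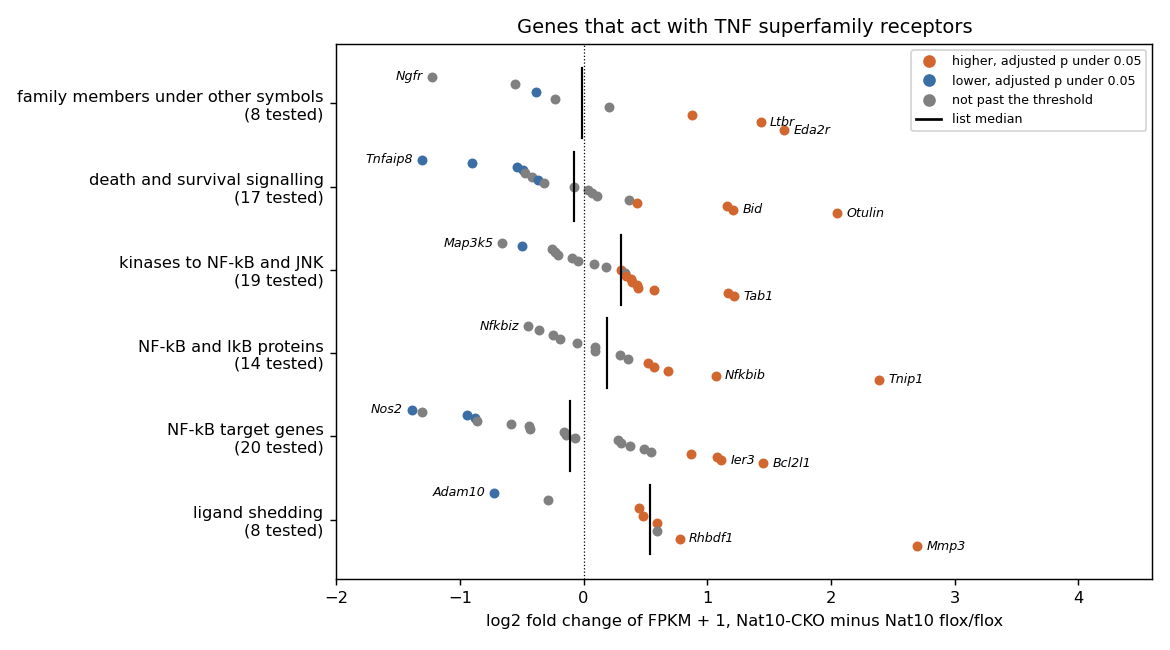
Log2 difference, libraries labelled Nat10-CKO minus flox/flox, on the log2(FPKM + 1) scale for the tested genes of each pathway list, 1 point per gene, with colours for limma adjusted p under 0.05 and a vertical bar at each list's median. The medians run from -0.11 for the targets of NF-kB to 0.54 for the ligand shedding list, and the list of NF-kB and IkB proteins has 5 genes that passed, all as higher.

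Ligands and receptors of the superfamily are released from the membrane by proteases, and of 9 genes of that process 8 were tested, 5 passed as higher and 1 as lower. The called share was 75.0% of those tested, against 37.6% of all tested genes, and with mitochondrially encoded genes removed the counts were 2 and 2. Mmp3, a matrix metalloprotease, was at 0.573, 0.614 and 0.203 FPKM in the flox/flox libraries and at 19.6, 6.57 and 4.35 FPKM in the CKO-labelled libraries (limma adjusted p = 0.00593). The flox/flox mean was under 0.5 FPKM, so Mmp3 was tested only through the libraries in which it was high, and its count among the 5 carries no weight. Its groups were far apart, but Nat10-CKO replicate 1 carried much of the rise, which was 21.96-fold with that library and 11.8-fold without it. Adam10, a sheddase, fell from 15.4 ± 1.401 to 8.99 ± 1.23 FPKM (SD, n = 3 each, limma adjusted p = 0.00601). Rhbdf1 and Rhbdf2, which carry the TNF sheddase ADAM17 to the cell surface, rose from 10.1 ± 0.791 to 18.3 ± 4.11 FPKM (limma adjusted p = 0.0115) and from 6.03 ± 0.474 to 9.66 ± 1.60 FPKM (limma adjusted p = 0.0140), the latter not without flox/flox replicate 3 (0.0548) or with mitochondrially encoded genes removed (0.0694). Frmd8 and Timp3, named after their values were seen, also passed as higher, and without flox/flox replicate 2 or 3 the number that rose was 3.

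Markers of other cell types differed between the groups beside these members. Of 8 endothelial markers 7 passed as lower, with a summed level of 340 to 405 FPKM in the flox/flox libraries and 213 to 216 FPKM in those labelled Nat10-CKO. Of 8 smooth muscle and pericyte markers 4 passed as lower, from 291 to 340 FPKM to 148 to 183 FPKM, and of 8 cardiomyocyte markers 2 did, with sums of 17815 to 21777 FPKM in the flox/flox libraries and 10203 to 17733 FPKM in the others. Of 8 red cell markers 5 were tested and all 5 passed as lower, with sums of 689 to 1781 FPKM against 423 to 535 FPKM. These 4 sums did not overlap between the groups, though the cardiomyocyte sums came close, at 17815 and 17733 FPKM. Over all tested genes 15.8% passed as lower, and 25.1% were lower without overlap. Macrophage markers, all 8 of which were at 0.5 FPKM or more, summed to 337 to 463 FPKM in the flox/flox libraries and 344 to 409 FPKM in the others, and fibroblast markers to 465 to 490 FPKM and 417 to 819 FPKM. The T cell markers summed to 21.2 FPKM in flox/flox replicate 2, in which Tnfsf10 and Tnf were highest, and to 3.53 to 6.001 FPKM in the other 5 libraries. B cell markers summed to 3.88 to 5.29 FPKM against 9.64 to 10.5 FPKM, with 2 of the 8 at 0.5 FPKM or more. That difference was of Blk alone, which was at 0.724, 0.587 and 0.898 FPKM against 7.52, 6.76 and 7.44 FPKM (limma adjusted p = 0.000178). The other 7 markers summed to 3.91, 4.70 and 2.98 FPKM in the flox/flox libraries against 3.02, 2.88 and 2.97 FPKM, and Cd79a and Ms4a1 were lower without overlap between the groups. Their part in the levels of the ligands and receptors was not tested.

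**Figure D5:**
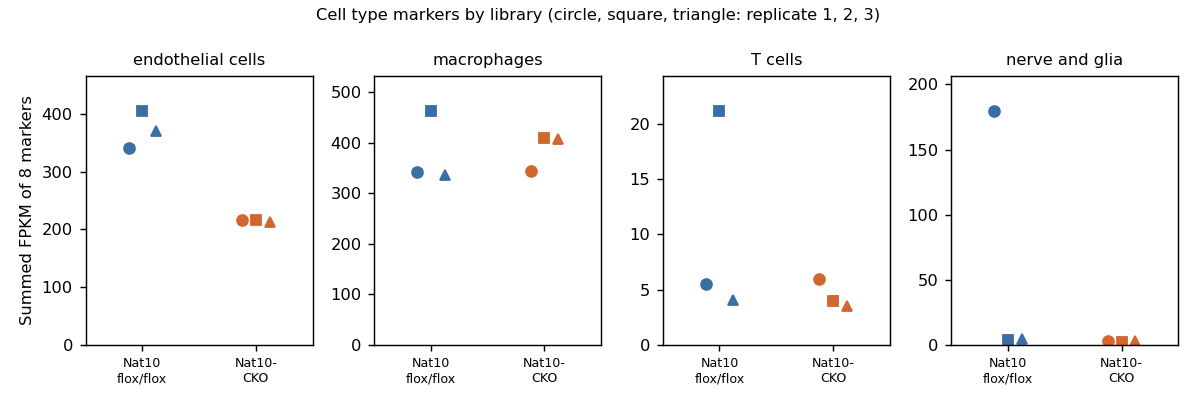
Summed FPKM of 8 markers in each library for endothelial cells, macrophages, T cells, and nerve and glia, with circle, square and triangle for replicates 1, 2 and 3. Nerve and glia markers stand at 180 FPKM in flox/flox replicate 1, T cell markers at 21.2 FPKM in flox/flox replicate 2, and the endothelial sums do not overlap between the groups.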

How the data were processed

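Per the labels' protocols, messenger RNA of hearts was selected on poly-T beads and sequenced from directional libraries as read pairs of 150 bp. HISAT2 2.2.1 mapped them to GRCm39 and featureCounts 2.0.6 assigned them to genes, per the series' design text. CASAVA and DESeq2 1.42.0 are further tools in the submitters' processing notes. From these the authors made the deposited FPKM, in 1 column per library. The strand setting of the counting and the definition of gene length are not given in the sources used here. Multiplied by gene length, 100% of FPKM values fell on whole reads (to within 0.01 read), and the scaling of the libraries equalled median-of-ratios size factors, so the reads behind each value were recovered.

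Genes with a mean of at least 0.5 FPKM over the 6 libraries were tested on log2(FPKM + 1) with limma 3.58.1 (lmFit, eBayes with trend, two-sided) in R 4.3.3, with Benjamini-Hochberg adjustment over 13681 genes and a threshold of 0.05; the scripts were tested on simulated data. A change is called higher or lower only past that threshold, and SD is over the 3 libraries of a group. As an alternative chosen for the recovered reads, limma-voom called 5230 genes against 5149. Other alternatives were the pseudocount, the filter, 4 rescalings, the variance model, a replicate block, leaving out each library, and a fold threshold. Named genes were Nat10, the members, and up to 4 genes of each pathway list with the smallest adjusted p, with the exceptions stated where they occur; some genes of the lists are counted but not reported here by name. The members and lists were chosen with earlier results of these data known. Same-numbered libraries of the groups did not deviate together (correlations of their deviations over genes 0.06, 0.03 and 0.09), so the numbers were not taken as pairs. Promoter bases are from RefSeq and were matched to GRCm39. No p was computed for a list. Each p-value sets the difference between the group means against the spread of libraries within the groups, which limma moderates across genes.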

Additional observations from a re-analysis of the deposited data

How the results depend on the processing

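Tnfrsf12a, Traf2 and Tnfsf10 kept their direction and their call under all 21 alternatives, and Tnfrsf1a and Tnfrsf21 did so under 20. Tnfrsf19 did so under 18 of the 19 that tested it. It passed the filter through the flox/flox libraries alone, so its calls carry no weight. Tnfrsf1a, Tnfrsf21 and Tnfrsf19 each missed only an added threshold of 1 on the log2 difference. With that threshold, 2 members were higher and 1 lower, 973 and 594 of all genes were higher and lower, and the lists held 2 (other symbols), 4 (death and survival), 2 (kinases), 2 (NF-kB and IkB), 4 (targets) and 1 (shedding) called genes. With a mean of at least 5 FPKM required, which tests fewer genes, 2 members and 1159 genes were lower, and 1 gene of the other symbols and 4 of death and survival passed. With mitochondrially encoded genes left out, 3 members were higher and 3265 genes lower; with array weights, 3361 genes were lower and 13 targets passed. The cause of these shifts was not tested. The replicate block gave 4 members higher and 4 lower, 2651 and 1844 over all genes, 5 kinase genes in place of 10 and an adjusted p of 0.0703 for Traf6; only some libraries correlated best with their own number. Leaving out each library in turn gave 3 to 5 members higher and 3 to 4 lower, 2101 to 3177 genes higher and 1305 to 2085 lower, 5 to 11 genes of death and survival and 4 to 8 kinase genes. Without replicate 1 of both groups, 3 members were higher and 6 kinase genes passed, and Traf3 (adjusted p = 0.0652), Traf6 (0.0725) and Tnfsf12 (0.0777) missed the threshold. Among members that were not called, the log2 difference changed sign for Tnfrsf25 (-0.010 with a pseudocount of 0.1, -0.022 on total reads, -0.023 on protein-coding reads, -0.12 without mitochondrial genes, -0.031 with voom, and -0.16 to 0.32 with 1 library left out), Birc3 (-0.020 without mitochondrial genes, and -0.13 to 0.27 with 1 library or both replicates 1 left out), Tnfrsf11a (0.055 with quantile normalization, and -0.19 to 0.049 with libraries left out), Tnfrsf13b (0.092 with quantile normalization, and -0.16 to 0.039 with libraries left out) and Tnfrsf18 (-0.13 to 0.32 with libraries left out).

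Depth limits the low members: those nearest the 0.5 FPKM threshold (Tnfrsf23, Traf1, Tnfrsf22 and Tnfrsf4) rested on 15 to 145 reads per library, and the 15 members below it were not tested. With 3 libraries per group, a p over the threshold does not show that levels were equal.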
